A study of Mus musculus with 3 samples.

Results

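The Ly6 surface antigens examined here were Ly6e, Ly6d, Ly6a, Ly6c2, Ly6c1 and Ly6g, 6 genes out of 48568 gene symbols measured in popliteal lymphnodes. A gene was taken as a member when its symbol in the expression tables was equal to a listed name, and all 6 names were found with 1 entry each. RNA of whole nodes, stroma and parenchyma together, came from untreated C57Bl/6 mice at 5 months of age. It was pooled into 1 library from 6 wildtype females, 1 from 3 SryHi males and 1 from 6 wildtype males. SryHi males are XY-Sry+ males of the FCG mouse model, whose Y chromosome has lost Sry and in which several transgenic copies of Sry sit on an autosome and overexpress it. Because these copies were inserted as a transgene, overexpression of Sry and any other effect of the insertion or of the altered Y chromosome cannot be told apart in this group. With 1 pool per group there was no spread between animals to test against, so no test between groups was run and no difference below has a replicate check.

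Ly6 proteins are small molecules with a disulfide-bonded fold of extended loops, and most are tethered to the outer face of the cell by a lipid anchor, glycosylphosphatidylinositol (GPI). Immunologists use several of them as surface markers. In the mouse, Ly6a is Sca-1, found on haematopoietic progenitors, endothelium and activated lymphocytes. Ly6c1 and Ly6c2 together make up the Ly6C antigen of inflammatory monocytes, memory CD8 T cells, plasma cells and endothelium, and Ly6g marks neutrophils. Ly6d marks progenitors committed to the B lineage and is also known from stratified epithelium. Ly6e is expressed in many cell types and is induced by type I interferon.

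All 6 genes lie within 397 kb of chromosome 15 in the mm10 (GRCm38) build, at chr15:74762056-75159126. Ly6d (ENSMUSG00000034634.7) is at chr15:74762056-74763620 on the minus strand and Ly6e (ENSMUSG00000022587.14) at chr15:74955051-74959905 on the plus strand. Ly6a (ENSMUSG00000075602.10), Ly6c1 (ENSMUSG00000079018.10) and Ly6c2 (ENSMUSG00000022584.14) follow on the minus strand at chr15:74994877-74998031, chr15:75044018-75048830 and chr15:75108158-75111970. Ly6g (ENSMUSG00000022582.4) closes the row on the plus strand at chr15:75155240-75159126. No annotated gene overlaps any of the 6, on either strand.

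By sequence, Ly6a, Ly6c1, Ly6c2 and Ly6g formed a group, while Ly6e and Ly6d stood apart from it and from each other, as the map of pairwise coding identity shows. The genes of the group, with coding parts of 393 to 402 nt, were 78.1% to 97.7% identical to each other. Ly6e (408 nt) and Ly6d (381 nt) were 49.3% to 52.7% identical to these and to each other. Ly6c1 and Ly6c2 were the closest pair, with 9 differences over 393 aligned bases and an identical run of 188 nt. The stretch of 60 coding bases in which they differ most, bases 6 to 65 of the coding part, is shown as a place where a read can tell the genes apart, though not the only one. Capitals mark the 6 bases that differ, from chr15:75048447-75048506 for Ly6c1 and chr15:75111603-75111662 for Ly6c2 (GRCm38, minus strand, GENCODE M21):
Ly6c1: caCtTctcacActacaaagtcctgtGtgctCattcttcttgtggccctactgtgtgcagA
Ly6c2: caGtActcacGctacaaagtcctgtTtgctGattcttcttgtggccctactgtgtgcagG
The reads of this study had 50 bases per mate. Of all 50-base stretches of the principal Ly6c2 transcript, 32.6% were also found exactly in a Ly6c1 transcript, and of those of Ly6c1, 31.7% in a Ly6c2 transcript. How the quantification divided such reads between the genes was not tested, and the levels of Ly6c1 and Ly6c2 are therefore uncertain one by one. Their sum is given as well. Of the other members, Ly6a shared 8.05% of its 50-base stretches with another gene, Ly6g 0.448%, and Ly6e and Ly6d none.

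**Figure D1:**
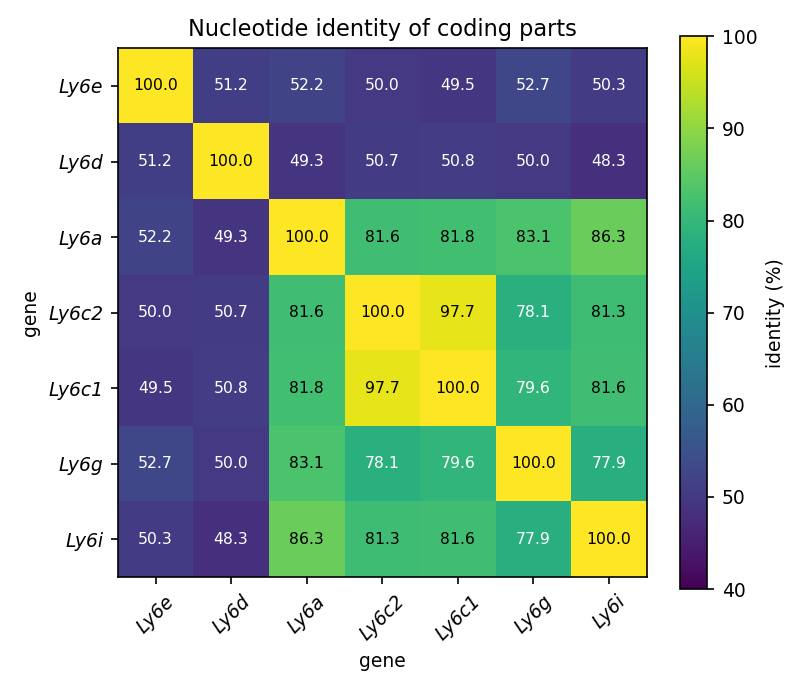
Nucleotide identity, in percent of aligned columns, between the coding parts of the 6 Ly6 members and of their neighbour Ly6i. The map shows 97.7% between Ly6c1 and Ly6c2, 77.9% to 86.3% among the other pairs of Ly6a, Ly6c1, Ly6c2, Ly6g and Ly6i, and 48.3% to 52.7% for every pair with Ly6e or Ly6d.

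Start regions were matched for 3 of the 6 members. Those of Ly6c2 and Ly6c1, the members with the most similar ratios between libraries below, are shown with that of Ly6g, their neighbour that was barely detected. Each is 300 bases from RefSeq (GRCm38.p6), 250 before and 50 from the start site on, and is the window of the start site furthest upstream of the 2 listed for each gene: chr15:75111922-75112221 (minus strand) for Ly6c2, chr15:75048788-75049087 (minus strand) for Ly6c1 and chr15:75155011-75155310 (plus strand) for Ly6g. Capitals mark TATAAA, the TATA box letters, CCAAT, the letters of the CCAAT box, and GAGGAAGT, a purine-rich sequence bound by the myeloid and B cell factor PU.1, each searched on both strands:
Ly6c2: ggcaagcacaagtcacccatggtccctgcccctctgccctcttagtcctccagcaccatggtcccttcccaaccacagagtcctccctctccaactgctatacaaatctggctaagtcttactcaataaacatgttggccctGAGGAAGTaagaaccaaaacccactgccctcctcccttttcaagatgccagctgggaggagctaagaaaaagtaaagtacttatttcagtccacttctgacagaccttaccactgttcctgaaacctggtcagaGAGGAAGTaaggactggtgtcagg
Ly6c1: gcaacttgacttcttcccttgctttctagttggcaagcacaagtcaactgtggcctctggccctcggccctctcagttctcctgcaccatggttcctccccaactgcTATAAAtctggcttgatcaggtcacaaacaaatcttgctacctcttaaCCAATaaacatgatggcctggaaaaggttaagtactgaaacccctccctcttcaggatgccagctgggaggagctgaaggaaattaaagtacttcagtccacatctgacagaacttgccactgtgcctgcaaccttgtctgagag
Ly6g: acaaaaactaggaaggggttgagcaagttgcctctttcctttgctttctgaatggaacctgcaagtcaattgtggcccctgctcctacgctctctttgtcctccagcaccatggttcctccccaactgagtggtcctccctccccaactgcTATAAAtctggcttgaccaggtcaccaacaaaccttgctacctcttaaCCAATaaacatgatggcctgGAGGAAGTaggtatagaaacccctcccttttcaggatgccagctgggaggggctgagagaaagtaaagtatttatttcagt
Local alignment gave 73.8% identity over 282 columns between Ly6c2 and Ly6c1, 76.4% over 276 columns between Ly6c1 and Ly6g and 70.3% over 256 columns between Ly6c2 and Ly6g. GAGGAAGT was found 2 times in the printed Ly6c2 window, 108 bases before and 26 bases after the start site, and 31 bases before that of Ly6g. In Ly6c1 it was found in the window of the other start site, 127 bases before it. Of 32851 mouse promoter windows of this length, 3.20% held GAGGAAGT. TATAAA, held by 13.6% of all windows, was found in Ly6c1 and Ly6g and not in the Ly6c2 windows, and CCAAT, held by 37.4%, likewise. TTCNNNGAA, the core letters of STAT sites, was searched in the same way and was in none of the windows of these genes, against 8.30% of all windows. None of the motif letters overlap each other in the printed windows, and a match describes the letters only.

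Levels are given as FPKM, which the authors computed as fragments per kilobase of transcript, scaled to the mapped fragments of each library, and deposited, so that genes of different length can be compared. Ly6e was the most abundant member. It had 484 FPKM in wildtype females, 637 FPKM in SryHi males and 692 FPKM in wildtype males. By level it ranked 67 of the 11800 coding genes at 1 FPKM or more in females, 35 of 11982 in SryHi males and 34 of 11923 in wildtype males. Ly6d, the next, had 173 FPKM in wildtype females, 128 FPKM in SryHi males and 189 FPKM in wildtype males.

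Ly6a and Ly6c2 had similar levels, and their order depended on the library. Ly6a had 75.2 FPKM in wildtype females, 113 FPKM in SryHi males and 92.2 FPKM in wildtype males. Ly6c2 had 66.0 FPKM in wildtype females, 114 FPKM in SryHi males and 60.9 FPKM in wildtype males. Ly6c1 was lower than Ly6c2 in every library, with 18.1 FPKM in wildtype females, 32.3 FPKM in SryHi males and 16.6 FPKM in wildtype males. Ly6g was at the bottom, with 0.284 FPKM in wildtype females, a value listed at 0 in SryHi males and 0.777 FPKM in wildtype males.

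**Figure D2:**
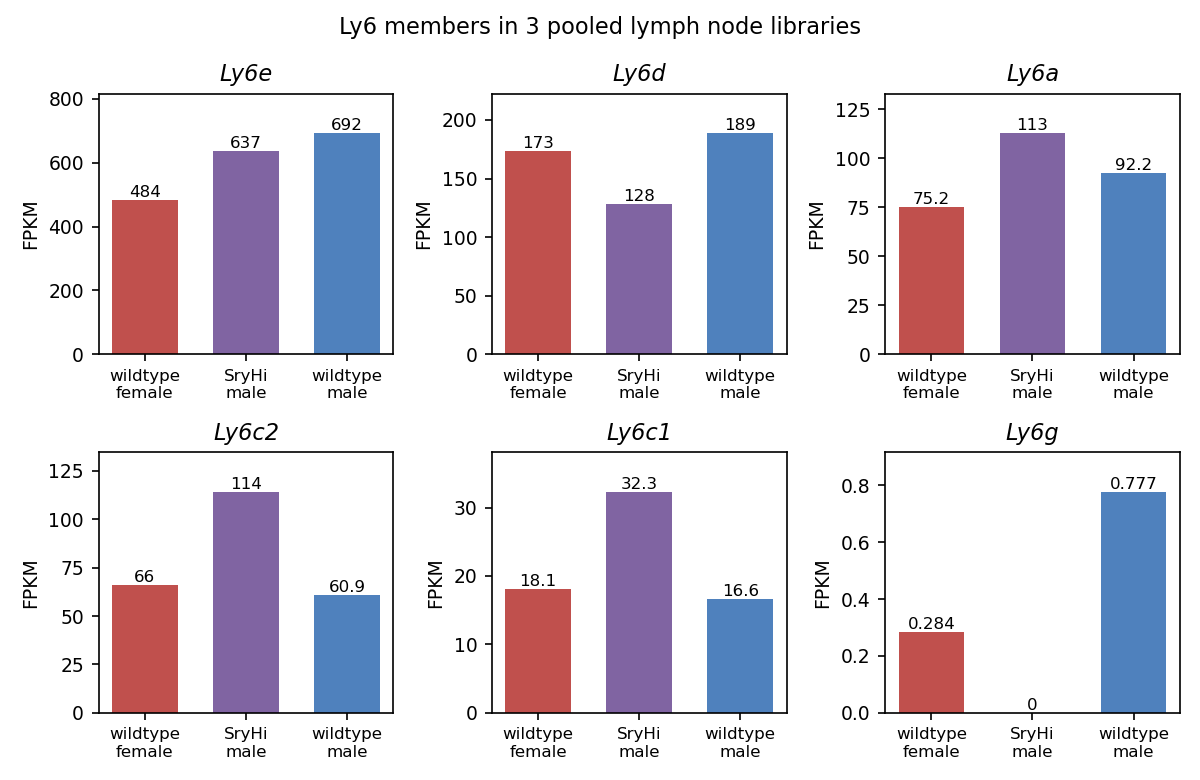
FPKM of each Ly6 member (y axis, each panel on its own scale from 0) in the wildtype female, SryHi male and wildtype male library, 1 bar per pooled library, with no error bar because each group is 1 pool. Ly6e was lowest in females (484 FPKM), Ly6d lowest in SryHi males (128 FPKM), and Ly6a, Ly6c2 and Ly6c1 highest in SryHi males (113, 114 and 32.3 FPKM).

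Read counts are not in the tables. Low FPKM values multiplied by transcript length were most often near 0.17 FPKM·kb in each library. Taken as the worth of 1 fragment, this puts each library at about 5.9e+06 fragments. The depth is uncertain: this estimate came from genes with 1 transcript of 700 to 1500 nt, and such genes of 3000 to 8000 nt gave 5.9e+06 fragments in females, 5.3e+06 in SryHi males and 6.7e+06 in wildtype males. All fragment numbers and intervals below rest on the value of 5.9e+06 and on the median coding transcript length of each gene. That length is uncertain too, as coding transcripts ran from 431 to 2281 nt for Ly6e and from 393 to 844 nt for Ly6c1. A longer length would raise the count and narrow the interval, and a shorter one the reverse. On this footing Ly6e rested on about 2263 to 3236 fragments in a library, Ly6d on 560 to 826, Ly6a on 379 to 568, Ly6c2 on 229 to 429 and Ly6c1 on 53 to 103. Intervals given here are 95% intervals from these approximate counts (exact Poisson for a level, Clopper-Pearson for a ratio). They cover counting error only and not the differences between mice. In SryHi males, the intervals of Ly6c2 (104 to 126 FPKM), Ly6a (104 to 122 FPKM) and Ly6d (118 to 139 FPKM) overlapped, so these neighbours in the order were not separated at this depth. In wildtype females the interval of Ly6a (67.8 to 83.1 FPKM) overlapped that of Ly6c2 (58.1 to 74.8 FPKM). In wildtype males Ly6a (84.0 to 101 FPKM) lay above Ly6c2 (53.4 to 69.5 FPKM). Every other neighbouring pair among Ly6e, Ly6d, Ly6a, Ly6c2 and Ly6c1 had intervals that did not overlap.

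As checks of the labels, Sry was listed at 0 in females, had 20.8 FPKM in SryHi males and was listed at 0 in wildtype males, while Ddx3y, Uty, Kdm5d and Eif2s3y, all Y-linked, were listed at 0 in females only. All 10 B cell and all 12 T cell marker genes were measured, with no gene at 0. Protein-coding genes summed to 344983 FPKM in females, 361881 FPKM in SryHi males and 365290 FPKM in wildtype males. The total over all entries differed far more, at 5.15e+06 FPKM in females, 1.35e+06 FPKM in SryHi males and 4.29e+06 FPKM in wildtype males. The FPKM were therefore compared as deposited, and the effect of rescaling each library to the same total (TPM) is given where it turns the sign of a value. TPM divides every gene of a library by the same number, so between genes it changes log2 ratios only through the 1 that is added to smaller values.

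The comparison of wildtype females with wildtype males asks whether the sexes differ in these genes. Ratios are the log2 ratio of FPKM + 1, a scale that shrinks the differences of weakly expressed genes, and a gene was kept if its mean over both libraries reached 1 FPKM. This kept 5 of the 6 members and left out Ly6g. A difference counted as a rise or a fall at 2-fold, the size that the study's methods treat as meaningful. None of the 5 members reached it, against 5.6% of 15523 genes (2.83% higher and 2.77% lower in females), and with 5 genes that count says little. Ly6e was the member furthest from 0. Its log2 ratio was -0.52, or 0.699 times the wildtype male FPKM (interval 0.662 to 0.738), and 6.87% of 8919 coding genes at 5 FPKM or more had a ratio as low. Ly6a had 0.815 times the wildtype male level (0.710 to 0.935), a log2 ratio of -0.29 that 18.4% of these genes matched or passed. For the other members the interval of the ratio included 1. Ly6d had a ratio of 0.919 (0.832 to 1.02), Ly6c2 of 1.08 (0.901 to 1.30) and Ly6c1 of 1.09 (0.741 to 1.62). The positive log2 ratios of Ly6c2 and Ly6c1, 0.11 and 0.12, turned to -0.14 and -0.11 on the TPM scale, on which the median of all genes was -0.16 in place of 0.010. Against that median they were 0.018 and 0.047. The median over the 5 members was -0.12, against 0.010 over all genes.

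SryHi males were compared with wildtype males to ask what goes with overexpressed Sry, and both comparisons share the wildtype male library. Again none of the 5 members measured reached 2-fold, against 7.84% of 15566 genes (3.7% higher and 4.14% lower in SryHi males). Ly6c1 and Ly6c2 came closest. Ly6c2 had 1.87 times the wildtype male FPKM (interval 1.59 to 2.21), a log2 ratio of 0.90, and Ly6c1 1.94 times (1.38 to 2.76), a log2 ratio of 0.92. Ratios this high were found in 2.24% and 2.05% of 8985 coding genes at 5 FPKM or more, and both intervals reached past 2-fold. Summed, as suits genes that share reads, the pair had 84.2 FPKM in wildtype females, 146 FPKM in SryHi males and 77.5 FPKM in wildtype males.

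The remaining members lay on both sides of the wildtype male level. Ly6a had 1.22 times the wildtype male level in SryHi males (1.08 to 1.38, log2 ratio 0.29), a size that 25.8% of coding genes matched or passed. Ly6d had 0.679 times (0.608 to 0.756), a log2 ratio of -0.56 that was matched or passed by 8.28% of coding genes in the low direction. Ly6e had 0.921 times (0.876 to 0.968), a log2 ratio of -0.12. On the TPM scale the median of all genes was 1.28 in place of 0.038 in this comparison, and Ly6d at 1.09 and Ly6e at 1.54 then turned positive together with most genes. Against that median the TPM ratios were 1.21 for Ly6c2, 1.07 for Ly6c1, 0.63 for Ly6a, 0.26 for Ly6e and -0.19 for Ly6d. The place of Ly6e against the median, -0.16 on the deposited scale, thus turned with the weight of the added 1. The median over the 5 members was 0.29, against 0.038 over all genes. Rises and falls of other genes are counted on the deposited scale throughout.

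**Figure D3:**
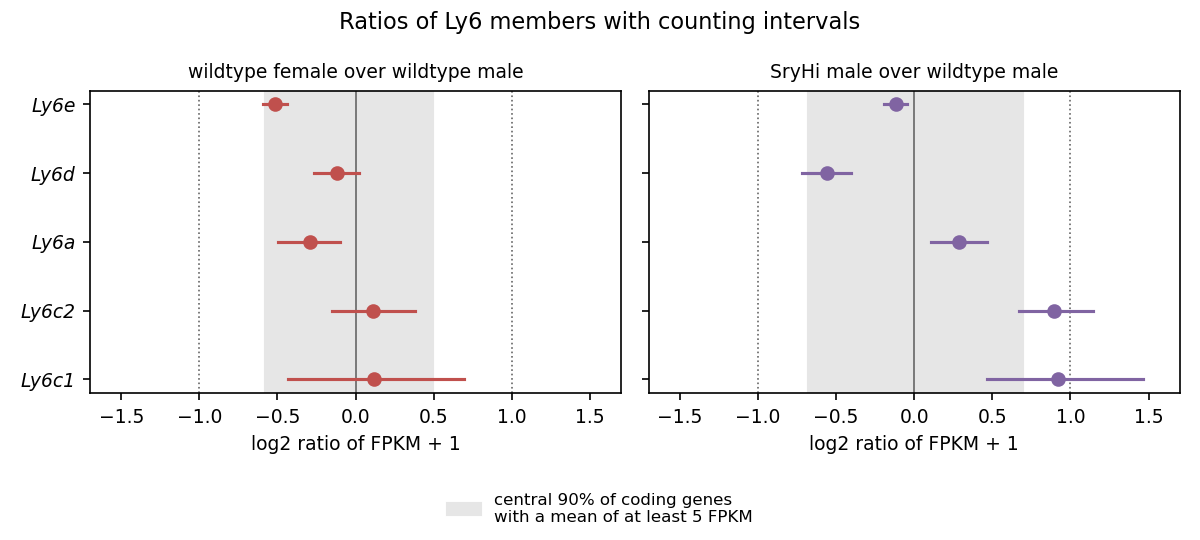
Log2 ratio of FPKM + 1 for the 5 measured members in wildtype females over wildtype males (left) and SryHi males over wildtype males (right). Bars are 95% counting intervals, dotted lines mark 2-fold, and the grey band spans the central 90% of coding genes at 5 FPKM or more (-0.58 to 0.50 on the left, -0.68 to 0.70 on the right); only Ly6c2 (0.90) and Ly6c1 (0.92) in SryHi males lie outside the band, and by TPM Ly6e and Ly6d turn positive on the right and Ly6c2 and Ly6c1 negative on the left.

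Wildtype females and SryHi males stand in different tables, and their values were set side by side after the wildtype male values were found equal in 48806 of 48808 entries, with no member among the others. None of the 5 members reached 2-fold, against 9.1% of 15590 genes (5.05% higher and 4.05% lower in females). Ly6c1 and Ly6c2 had 0.561 and 0.578 times the SryHi level in females (0.401 to 0.784 and 0.492 to 0.677), log2 ratios of -0.80 and -0.78. Ly6a had 0.668 times (0.584 to 0.761, log2 ratio -0.58) and Ly6e 0.759 times (0.718 to 0.802, log2 ratio -0.40). Ly6d was the single member with the higher value in females, 1.35 times the SryHi level (1.21 to 1.51, log2 ratio 0.43). Over the 3 libraries the highest value of a member exceeded the lowest by 1.43-fold for Ly6e, 1.47-fold for Ly6d, 1.498-fold for Ly6a, 1.87-fold for Ly6c2 and 1.94-fold for Ly6c1.

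Ratios between members inside 1 library do not depend on how that library was scaled. The ratio of Ly6c2 to Ly6c1 was 3.64 in wildtype females, 3.54 in SryHi males and 3.67 in wildtype males. It was nearly constant across libraries in which each gene moved up to 1.94-fold. The genes share reads, so their values may not be independent, and the effect of dividing these reads on the ratio was not tested. Ly6c1 rested on only about 53 to 103 fragments in a library. The ratio of the summed Ly6C genes to Ly6d was 0.486 in females, 1.14 in SryHi males and 0.411 in wildtype males. It was thus 2.78-fold higher in SryHi than in wildtype males, and only in the SryHi library did the Ly6C genes together exceed Ly6d. Relative to Ly6e, the summed Ly6C genes stood at 0.174 in females, 0.230 in SryHi males and 0.112 in wildtype males, or 1.55-fold higher in females and 2.05-fold higher in SryHi males than in wildtype males. The ratio of Ly6a to Ly6d was 0.434 in females, 0.880 in SryHi males and 0.489 in wildtype males.

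The family as a whole summed to 817 FPKM in females, 1025 FPKM in SryHi males and 1051 FPKM in wildtype males. Ly6e made up 59.2% of the sum in females, 62.2% in SryHi males and 65.8% in wildtype males, and Ly6d 21.2% in females, 12.5% in SryHi males and 17.9% in wildtype males. The Ly6C genes held their largest share in SryHi males. Ly6c2 took 8.09% in females, 11.1% in SryHi males and 5.79% in wildtype males, and Ly6c1 2.22% in females, 3.15% in SryHi males and 1.58% in wildtype males. Ly6a took 9.21% in females, 11.0% in SryHi males and 8.77% in wildtype males.

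Ly6g, the neutrophil antigen, was at the edge of detection. Its 0.284 FPKM in females corresponds to about 1 fragment, it was listed at 0 in SryHi males, and its 0.777 FPKM in wildtype males corresponds to about 3 fragments, so no fold is given. Most other neutrophil genes were measured. Of 15 genes kept on a neutrophil list of 16 that includes Ly6g, 12 fell by 2-fold or more in females and 10 in SryHi males relative to wildtype males, and none was higher in either. The list had a median log2 ratio of -2.12 in females and -1.68 in SryHi males, or -1.09 and -0.24 by TPM, below the medians of all genes on either scale. It summed to 69.7 FPKM in females, 108 FPKM in SryHi males and 391 FPKM in wildtype males. S100a8, a calcium-binding protein abundant in neutrophils, had 23.4 FPKM in females, 41.2 FPKM in SryHi males and 141 FPKM in wildtype males, and its partner S100a9 had 20.2 FPKM in females, 23.3 FPKM in SryHi males and 117 FPKM in wildtype males. A change of Ly6g of the same size was not detectable at its depth. In whole nodes, fewer cells of a type and less RNA per cell cannot be told apart.

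Along the chromosome, 10 other protein-coding genes lie between the members or next to the outermost ones. Of these, 7 stayed below 1 FPKM in every library (D730001G18Rik, Gml, Gml2, Cyp11b1, Cyp11b2, 2010109I03Rik and BC025446), and the steroid synthesis genes Cyp11b1 and Cyp11b2 were listed at 0 throughout. The neighbours above 1 FPKM were Lynx1, Ly6k and Ly6i, which are Ly6 genes themselves. Lynx1, known as a modulator of nicotinic receptors in brain, had 8.82 FPKM in females, 7.67 FPKM in SryHi males and 9.41 FPKM in wildtype males. Ly6k had 4.79 FPKM in females, 4.35 FPKM in SryHi males and 7.30 FPKM in wildtype males. Ly6i, which lies between Ly6e and Ly6a and is 86.3% identical to Ly6a in its coding part, was the neighbour that moved past 2-fold. It had 13.1 FPKM in females, 3.65 FPKM in SryHi males and 1.32 FPKM in wildtype males, log2 ratios over wildtype males of 2.60 in females and 1.01 in SryHi males. Ly6a beside it had its lowest value in females, where Ly6i had its highest, while in SryHi males both were above their wildtype male values. Of the 50-base stretches of Ly6i, 4.97% occur in another gene and 2.80% in Ly6a. How reads were divided between these genes was not tested. The wildtype male value of Ly6i is low, and no counting interval was computed for its ratios.

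**Figure D4:**
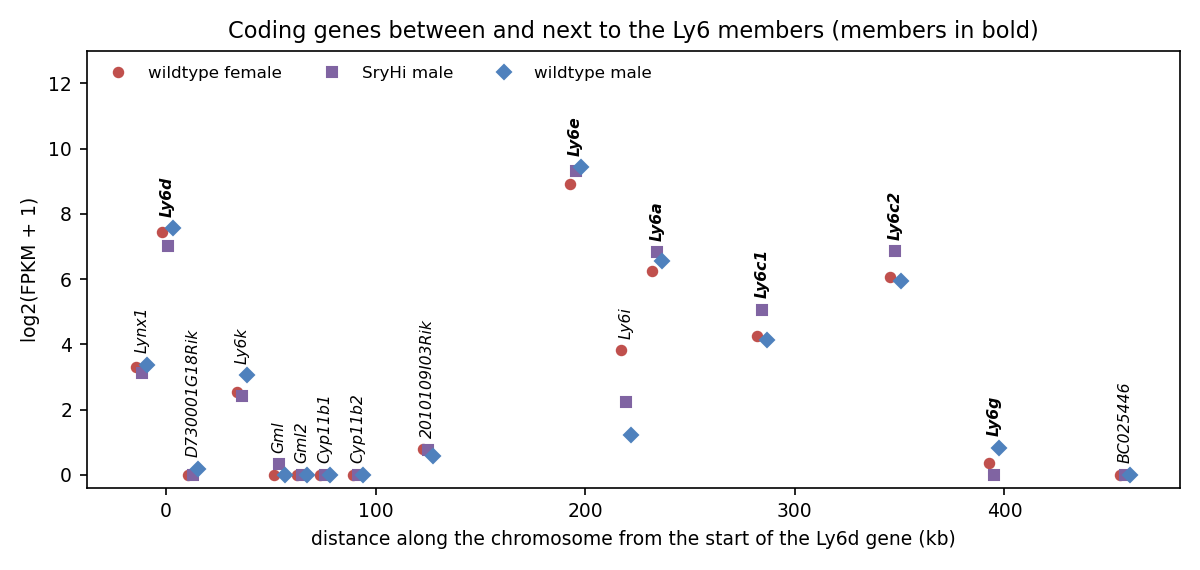
Level as log2(FPKM + 1) of the 16 coding genes in and beside the Ly6 cluster, against distance in kb from the start of Ly6d. Symbols show wildtype females, SryHi males and wildtype males and are set slightly apart sideways so that all can be seen; the 7 non-members below 1 FPKM lie between Ly6d and Ly6e or beyond Ly6g, and Ly6i is the gene with the widest gap between libraries (13.1 FPKM in females, 3.65 FPKM in SryHi males and 1.32 FPKM in wildtype males).

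The wider family of genes with the Ly6/uPAR fold was mostly below 1 FPKM in these nodes. Of 37 listed genes other than the 6 members, 34 were in the tables and 13 were listed at 0 in all 3 libraries. Of 11 measured in females and wildtype males, 1 rose (Ly6i) and none fell by 2-fold, with 4 above and 7 below 0 and a median log2 ratio of -0.08. Of 9 measured in SryHi and wildtype males, 2 rose, none fell, and the median was -0.26, or 1.07 by TPM. These were Ly6i and Cd59a, an inhibitor of the complement membrane attack complex, which had 2.81 FPKM in females, 5.30 FPKM in SryHi males and 1.98 FPKM in wildtype males. Plaur, the urokinase receptor, was the most abundant of the list with 28.4 FPKM in females, 22.1 FPKM in SryHi males and 30.0 FPKM in wildtype males, less than every library's value for Ly6a.

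Genes that build and attach the GPI anchor were examined because the Ly6 proteins carry it. Of 28 such genes, 27 were measured. None reached 2-fold between females and wildtype males (18 above 0, 9 below, median 0.16, or -0.08 by TPM), while in SryHi males Pigz rose and Pgap3 fell relative to wildtype males, with 14 genes above 0, 13 below and a median of 0.03. Pgap3, which remodels the lipid of the anchor, had 2.42 FPKM in females, 1.06 FPKM in SryHi males and 3.31 FPKM in wildtype males. Pigz, a mannosyltransferase that adds a side branch, had 2.48 FPKM in females, 3.31 FPKM in SryHi males and 1.11 FPKM in wildtype males. Both genes are low. Among the abundant ones, Pign, which adds ethanolamine phosphate, had 36.5 FPKM in females, 36.1 FPKM in SryHi males and 36.2 FPKM in wildtype males. The anchor deacylase Pgap1 had 58.1 FPKM in females, 56.6 FPKM in SryHi males and 43.2 FPKM in wildtype males.

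Lists of genes that mark cells known to carry each antigen were set beside the members; their part in the members' values was not tested. For the Ly6C genes, which had their highest values in SryHi males, the monocyte list of 12 genes, Ly6c2 included, summed to 979 FPKM in females, 1042 FPKM in SryHi males and 1030 FPKM in wildtype males. Its median log2 ratio was -0.13 in females (1 of 12 fell, none rose) and 0.12 in SryHi males (1 rose, 1 fell). Its genes went both ways in SryHi males. Ccr2, the chemokine receptor of Ly6C-high monocytes, had 31.3 FPKM in females, 58.5 FPKM in SryHi males and 33.2 FPKM in wildtype males, so that it too was highest in SryHi males. F13a1, a clotting factor subunit of monocytes and macrophages, rose to 20.95 FPKM in SryHi males, against 7.72 FPKM in wildtype males. Lyz2, a lysozyme of all myeloid cells, had 522 FPKM in SryHi males and 648 FPKM in wildtype males, and Chil3, which is high in Ly6C-high monocytes, fell to 2.47 FPKM in SryHi males, against 6.35 FPKM in wildtype males.

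Other cell types that carry Ly6C gave medians of both signs. Of 9 measured plasma cell genes, 1 fell in females and 1 in SryHi males (medians -0.40 in females and -0.19 in SryHi males, the SryHi value being 1.05 by TPM), and the list summed to 385 FPKM in females, 361 FPKM in SryHi males and 514 FPKM in wildtype males. Genes of memory and effector CD8 T cells summed to 213 FPKM in females, 300 FPKM in SryHi males and 241 FPKM in wildtype males. Their medians were -0.11 over 8 genes in females and 0.25 over 9 genes in SryHi males. Klrg1, an inhibitory receptor, rose to 1.88 FPKM in SryHi males from 0.302 FPKM in wildtype males, levels that rest on few fragments. Ccl5, a chemokine stored by memory and effector CD8 T cells, had 103 FPKM in females, 175 FPKM in SryHi males and 131 FPKM in wildtype males. General T cell genes had, on the deposited scale, 12 of 12 above 0 in females (median 0.43) and 11 of 12 below 0 in SryHi males (median -0.48, and 1.10 by TPM, below the 1.28 of all genes), though none of the 12 reached 2-fold in either. Endothelial genes had medians of -0.20 in females and 0.27 in SryHi males, and summed to 239 FPKM in females, 301 FPKM in SryHi males and 273 FPKM in wildtype males. Like Ly6a, the endothelial, CD8 memory, fibroblast, plasmacytoid dendritic cell and type I interferon lists all had their highest sum in SryHi males and their lowest in females. The monocyte and B cell lists had the same order, so it was common among the lists. In some the SryHi sum was barely above that of wildtype males, as with 1492 against 1491 FPKM for B cell genes. For plasmacytoid dendritic cell genes it was 313 against 308 FPKM. Fibroblast and progenitor genes summed to 327 FPKM in females, 608 FPKM in SryHi males and 425 FPKM in wildtype males, while their medians were -0.38 in females and -0.09 in SryHi males, or 1.47 by TPM in SryHi males. The greatest part of each sum was Dcn, a matrix proteoglycan, with 166 FPKM in females, 426 FPKM in SryHi males and 217 FPKM in wildtype males.

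For Ly6d, the B cell genes were level. Their medians were 0.02 in females and 0.00 in SryHi males, with 5 of 10 above 0 in each comparison and none at 2-fold, while Ly6d had ratios of 0.919 in females and 0.679 in SryHi males. Plasmacytoid dendritic cell genes had medians of -0.07 in females and 0.09 in SryHi males. Of stratified epithelium genes, another known site of Ly6d, only 2 of 10 were measured, the list summed to 5.25 FPKM in females, 3.98 FPKM in SryHi males and 4.61 FPKM in wildtype males, and the desmosomal cadherin Dsg3 was listed at 0 in each library. The level of Ly6d was 128 to 189 FPKM, and which cells it came from was not tested. By TPM the B cell median was -0.23 in females.

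Ly6a, Ly6c and Ly6e respond to interferon in mouse cells, and lists of interferon response genes were therefore set beside them. Of 16 type I interferon genes, none reached 2-fold in females (5 above 0, 11 below, median -0.35), and 4 rose in SryHi males, with 14 of 16 above 0 and a median of 0.48. The genes that rose were Ifit1, Ifit2, Ifit3 and Mx1, all antiviral effectors. Ifit3 had 2.48 FPKM in females, 14.4 FPKM in SryHi males and 4.72 FPKM in wildtype males, and Mx1 had 6.84 FPKM in females, 15.2 FPKM in SryHi males and 6.11 FPKM in wildtype males. The median of this list stayed above that of all genes by TPM (1.80 against 1.28). In SryHi males Ly6c2 (0.90), Ly6c1 (0.92) and Ly6a (0.29) had the sign of this list's median and Ly6e (-0.12) had not, though by TPM Ly6e was at 1.54, above the median of all genes. In females Ly6e (-0.52) and Ly6a (-0.29) had the sign of the list's median and Ly6c2 (0.11) and Ly6c1 (0.12) had not. By TPM the Ly6C genes were at -0.14 and -0.11, still above the median of all genes (-0.16). The list's median by TPM, -0.30, was below that of all genes. Interferon gamma genes had a median of 0.22 in females, or -0.0263 by TPM, and of 0.22 in SryHi males, or 1.64 by TPM. Of 16 such genes, 1 reached 2-fold in females (the chemokine Cxcl9, higher) and 1 in SryHi males (the feedback inhibitor Socs1, lower). On the deposited scale Ly6c2 and Ly6c1 had the sign of the interferon gamma median in both comparisons. Ly6a had it in SryHi males only, and Ly6e in neither. Whether either interferon had a part in the members' values was not tested.

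**Figure D5:**
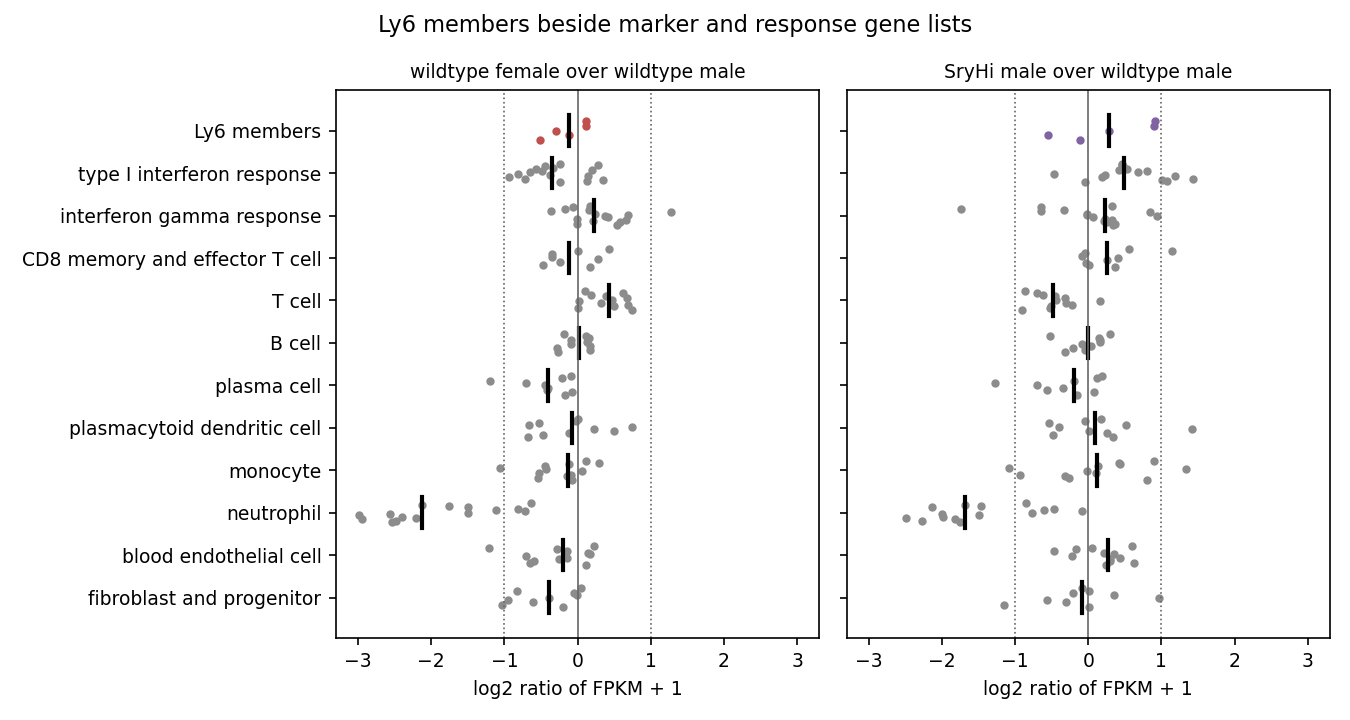
Log2 ratio of FPKM + 1 for each measured gene (dots) of the Ly6 family and of 11 lists of marker and response genes, with the median of each list as a black bar and 2-fold as dotted lines, for wildtype females (left) and SryHi males (right) over wildtype males. The neutrophil list lies far below 0 in both panels (medians -2.12 in females and -1.68 in SryHi males), the type I interferon list lies at -0.35 on the left and 0.48 on the right, and the Ly6 members spread from -0.56 to 0.92 on the right; by TPM the median of all genes on the right is 1.28, and Ly6d and Ly6e turn positive there.

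Likeness to each member was measured as the distance between genes in the plane of both log2 ratios, over 8972 coding genes that averaged 5 FPKM or more. It rests on 3 libraries, so many genes come close. The Ly6C genes were among each other's 3 nearest, 0.024 apart, and shared the other neighbours, Anapc10, a subunit of the anaphase-promoting complex, and Tmem243. The pair shares reads, and the effect of this on their closeness was not tested. Within a distance of 0.1 lay 32 genes for Ly6c2 and 31 for Ly6c1, fewer than for the other members. For Ly6e the nearest were the histone gene Hist1h2ak, Igfbp7, a matrix protein of vessels, and Adcyap1r1, with 85 genes within 0.1. For Ly6d they were Il17ra, a chain of the interleukin-17 receptor, 2310022A10Rik and Fgd3 (107 genes), and for Ly6a Pias3, an inhibitor of STAT signalling, Daam1 and Atp13a3 (127 genes). No other member was among the 3 nearest of Ly6e, Ly6d or Ly6a.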

How the data were processed

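Popliteal lymphnode RNA was sequenced by the authors as stranded, ribosomal RNA-depleted libraries (2 mates of 50 bases), 1 pool per group. HiSat2, SAMtools, Cufflinks and Cuffdiff are named for the processing, on mm10; their versions are not given in the sources used here. The authors deposited 2 Cuffdiff tables of 48808 entries with the FPKM of each library. The tables also hold the authors' log2 fold changes, test statistics, p-values, q-values and calls, which were not used.

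Entries of a symbol were summed. Ratios were log2 of FPKM + 1, taken where the mean of both libraries reached 1 FPKM; calls were 2-fold. Annotation was GENCODE M21. Fragments were approximated as FPKM times the median coding transcript length in kb, divided by 0.17; the 0.17 is the most common low value of genes with 1 transcript of 700 to 1500 nt (longer genes were tried after seeing the data). The ratio step and its 2-fold call were tested on simulated libraries with planted changes larger than 2-fold. The fragment estimate, intervals, likeness and sequence steps were not simulated. Python 3.11.15, pandas 2.3.3, numpy 2.4.6, scipy 1.17.1, biopython 1.88 and matplotlib 3.10.9 were used.

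The members and the 14 lists were chosen with earlier results of these data known. By rule, the text names all members and their coding neighbours, from each list the 3 genes with the highest level and the 2 with the largest ratio, and the 3 genes most like each member; not all of these are described. Ccr2, Ifit1, Ifit2 and Dsg3 were chosen after their values were seen. Alternatives were another or no filter, pseudocounts of 0.1 and 5 FPKM, TPM, equal protein-coding totals, centring on the median, the summed Ly6C genes, the highest entry of a symbol and the ratio of ratios.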

Additional observations from a re-analysis of the deposited data

How the results depend on the processing

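No replicate could be left out and no paired analysis was possible because each group is 1 pooled library. Of 331 values recomputed under the alternatives, 265 moved by less than the counting interval of a member, 0.1 on the log2 scale for a list or 1.5-fold for a count. Another 66 moved further, 37 of them by TPM. No value that was past 2-fold on the deposited scale changed its sign, but only the neutrophil medians were that large and no member was. TPM gave Ly6d, Ly6e and several list medians in SryHi males the opposite sign and a size past 2-fold. Centring, the summed Ly6C genes and the monocyte list without Ly6c2 (chosen after seeing the data) moved none of the values they were applied to. Centring shifted every ratio by only 0.010 in females and 0.038 in SryHi males. This is under the limit of 0.1, so it could not move a list median. The highest entry (each member has 1), the ratio of ratios (the wildtype male value cancels) and the neutrophil list without Ly6g, which the filter removes, are counted among the 265 but could not move a value and say nothing of stability. The same holds for another or no filter where it was applied to the ratios of the members or to lists whose genes it left unchanged, because a filter only drops genes. Genes below about 1 FPKM, Ly6g among them, rest on too few fragments for a fold.

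For females over wildtype males, TPM gave log2 ratios of -0.77 for Ly6e, -0.38 for Ly6d and -0.53 for Ly6a, and list medians of -0.20 (other Ly6/uPAR), -0.079 (GPI anchor), -1.09 (neutrophil), -0.26 (monocyte), -0.58 (plasma cell), -0.23 (B cell), -0.26 (plasmacytoid dendritic cell), 0.16 (T cell), -0.31 (endothelial), -0.63 (fibroblast) and -0.0263 (interferon gamma), with 157 genes higher and 239 lower. Equal protein-coding totals gave -0.43 for Ly6e. Without a filter, medians were 0.058 (other Ly6/uPAR), -1.94 (neutrophil) and 0.0755 (CD8 memory). At 5 FPKM or more they were -2.48 (neutrophil), -0.47 (plasmacytoid dendritic cell), -0.24 (CD8 memory) and -0.0466 (type I interferon), with 229 genes higher and 219 lower. A pseudocount of 0.1 gave 708 higher, 703 lower and -2.63 (neutrophil), and one of 5 gave 189 higher, 168 lower, -0.96 (neutrophil) and -0.19 (type I interferon).

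For SryHi over wildtype males, TPM gave 1.54 for Ly6e, 1.09 for Ly6d, 1.91 for Ly6a, 2.49 for Ly6c2 and 2.36 for Ly6c1, so that 5 members passed 2-fold along with 10745 genes higher and 147 lower. List medians by TPM were 1.07 (other Ly6/uPAR), 1.34 (GPI anchor), -0.24 (neutrophil), 1.44 (monocyte), 1.05 (plasma cell), 1.65 (B cell), 1.24 (plasmacytoid dendritic cell), 1.10 (T cell), 1.47 (CD8 memory), 1.49 (endothelial), 1.47 (fibroblast), 1.80 (type I interferon) and 1.64 (interferon gamma). Without a filter the CD8 memory median was 0.13. At 5 FPKM or more, medians were -0.43 (other Ly6/uPAR), -1.83 (neutrophil) and 0.42 (monocyte), with 295 genes higher and 403 lower. A pseudocount of 0.1 gave 945 higher and -1.94 (neutrophil), and one of 5 gave 191 higher, 319 lower, -0.82 (neutrophil) and 0.37 (type I interferon). Apart from the change of total by TPM, the cause of these shifts was not tested.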
